A study of Mus musculus with 68 samples.

Results

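The calcium/calmodulin-dependent protein kinases (CaM kinases) were followed in mouse prefrontal cortex through 9 genes: Camk2a, Camk2b, Camk2d, Camk2g, Camk1, Camk1d, Camk1g, Pnck and Camk4. They were found by symbol among the 18088 genes of a single table, and all 9 passed the filter on low values that left 17922 genes to test. The family was chosen because Camk2d was lower in Adnp-mutant mice and Pnck was lower under lithium, so the members' HT to WT and lithium to vehicle differences are a description, given without a p-value in any arm. RNA of the prefrontal cortex had been sequenced from 68 C57BL/6J mice, male and female, at postnatal day 25. Mice heterozygous for Adnp (HT) numbered 10 on fluoxetine, 9 on lithium and 16 on vehicle, and wild-type mice (WT) numbered 10, 8 and 15 on the same treatments. The drugs reached the pups through maternal milk from day 3 to day 24, so the dose each pup took in is unknown. The kind of Adnp mutation is not given in the sources used here.

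CaM kinases are serine/threonine kinases that calcium-loaded calmodulin switches on. The CaMKII subunits alpha, beta, delta and gamma (Camk2a, Camk2b, Camk2d, Camk2g) assemble into large rings, and once a threonine of the regulatory segment has been autophosphorylated the kinase keeps part of its activity after calcium has fallen, a step known for its role in synaptic plasticity. CaMKI (Camk1, Camk1d, Camk1g and Pnck, the beta form) and CaMKIV (Camk4) form a cascade in which the upstream kinases Camkk1 and Camkk2 phosphorylate a threonine of the activation loop, and CaMKIV is a nuclear kinase of the transcription factor CREB.

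The coding sequence around that regulatory threonine is shown for the members for which it was read, because it sets the subfamilies apart and shows how alike their transcripts are at the same site. Each line holds 51 bases of the coding strand of mouse genome GRCm38, 5′ to 3′, with the threonine codon in capitals (the autophosphorylated threonine in Camk2b, Camk2d and Camk2g, the activation-loop threonine in the other 4).
Camk2b: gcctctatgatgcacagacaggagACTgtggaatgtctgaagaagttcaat
Camk2d: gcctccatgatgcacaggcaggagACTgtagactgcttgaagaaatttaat
Camk2g: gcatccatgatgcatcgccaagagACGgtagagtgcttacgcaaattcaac
Camk1: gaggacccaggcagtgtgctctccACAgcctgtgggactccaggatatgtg
Camk1d: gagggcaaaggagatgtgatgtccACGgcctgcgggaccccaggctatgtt
Camk1g: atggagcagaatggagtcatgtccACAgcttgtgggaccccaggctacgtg
Pnck: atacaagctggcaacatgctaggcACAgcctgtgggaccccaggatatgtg

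The Camk2d stretch lies on the plus strand at chr3:126797717-126797767, in exon 11 of the annotated transcript it was read from. The Pnck stretch lies on the minus strand at chrX:73657721-73657771, in exon 6 of its transcript. Both stretches are coding there. The stretches of Camk2b (chr11:5988973-5989023), Camk2g (chr14:20760415-20760465), Camk1 (chr6:113338281-113338331), Camk1d (chr2:5354670-5354720) and Camk1g (chr1:193353993-193354043) also lie in coding exons, all 5 on the minus strand. Over these 51 bases Camk2d was identical to Camk2b at 43 positions (84.3%) and to Camk2g at 38 (74.5%), and Pnck was identical to Camk1 at 37 (72.5%) and to Camk1d and Camk1g at 30 each (58.8%). The longest exact run shared by annotated transcripts of any 2 members was 43 bases, between Camk2b and Camk1d. How reads that fall in such runs were assigned is not given in the sources used here.

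The libraries held 22.4 to 37.5 M reads (median 30.7 M). They fell into 3 sets when clustered on 361 pseudogenes, none of them a member, and no label gives these sets. Set 1 took in every fluoxetine library and 8 of the 16 from HT mice on vehicle. Set 2 took in every lithium library together with 6 HT and 5 WT libraries on vehicle. Set 3 was made up of 10 WT mice on vehicle (replicates 1 to 5 of each sex) and 2 HT males on vehicle. Every HT to WT comparison under fluoxetine or lithium was thus made within 1 set, while most of the vehicle comparison was not, and the drug comparisons are given below also within a set where vehicle libraries of that set exist, which is not so for fluoxetine in WT. Between WT vehicle libraries of set 3 and of set 2, 7 of the 9 members were called, beside 42.4% of all genes tested (21.0% higher and 21.4% lower). The sets were drawn from expression in these same libraries, so these counts are a description. Camk2d and Camk1 were higher and Camk2a, Camk2b, Camk2g, Camk1g and Pnck lower in set 3, and markers of other cells and regions moved with them. Of 66 marker genes of 12 cell types and regions, 12 were higher and 28 lower in set 3, among them 5 of 6 olfactory bulb markers higher (median log2 difference 2.95), 8 of 8 striatal markers lower (-1.21), 6 of 6 oligodendrocyte markers lower (-0.78) and 4 of 4 oligodendrocyte precursor markers lower (-0.44). The summed excitatory neuron markers ran 48489, 60577 and 75391 normalized counts (lowest, median, highest) in WT vehicle mice of set 3, against 65242, 73673 and 76938 in set 2, with 1 of the 8 genes higher and 2 lower. The part of these markers in the members' values was not tested. Cortical excitatory markers such as Slc17a7 (33346 to 61822 normalized counts) were present in every library. Ttr of choroid plexus ran from 0 to 5536 over the libraries, and Tbx21 of olfactory bulb from 0 to 574. The summed olfactory bulb markers ran from 2395 to 27031 in HT vehicle mice. The summed choroid plexus markers ran from 64 to 5948 in WT lithium mice, so tissue of both kinds was present in some libraries. Adnp itself read 1730, 2334 and 2845 (lowest, median, highest) in HT vehicle mice, against 1077, 1978 and 2290 in WT vehicle mice, a log2 difference of 0.32 (SE 0.07), so its mRNA level does not check the genotype labels. In bulk tissue, fewer cells of a type and less RNA per cell cannot be told apart.

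Levels between genes were compared as normalized counts per kb of exon. Camk2a, the alpha subunit that dominates forebrain excitatory synapses, had the highest mean at 16847 per kb and stood at percentile 99.9 of the genes tested by normalized count. Camk2b, the actin-binding beta subunit, followed at 5635 per kb. Camk2g and Camk1 were close, at 1743 and 1734 per kb, and their libraries overlapped over nearly the whole range. Pnck averaged 853.3 per kb, Camk4 565, Camk1d 549 and Camk1g 483.9 per kb, of which the last 3 overlapped widely. Camk2d, whose delta subunit is best known from heart muscle, was lowest at 353.8 per kb, over the longest exon length of the 9 (8.52 kb). By normalized count it stood at percentile 88, above Camk1 (86), Camk4 (78), Pnck (77) and Camk1g (71.4), so its rank depends on the exon length used.

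**Figure D1:**
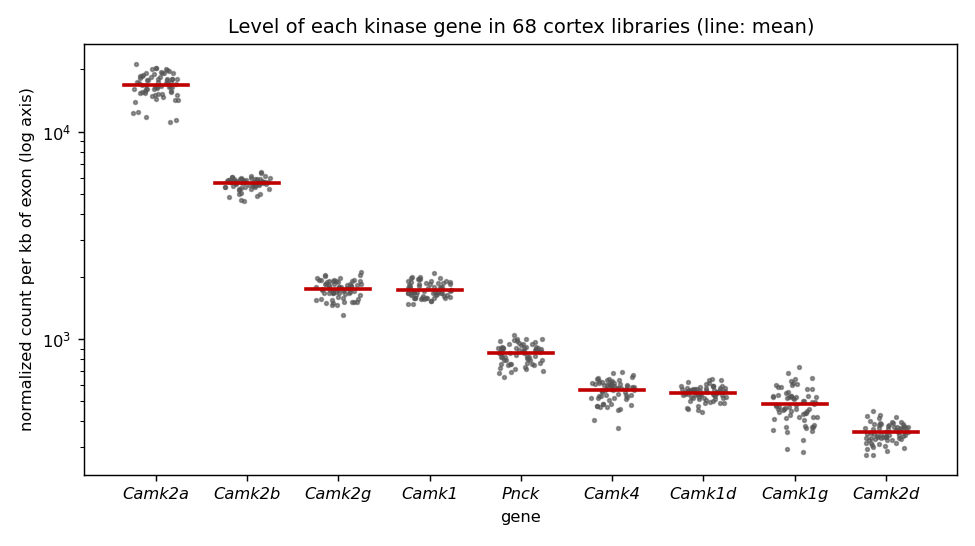
Normalized count per kb of exon (log axis) of the 9 kinase genes, 1 point per library (68 libraries of all groups) with the mean as a line. Camk2a averaged 16847 per kb and Camk2d 353.8 per kb, and the points of Camk4, Camk1d and Camk1g overlap.

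Spread between libraries of the same group differed between members. Camk2b varied least, with a within-group SD of 0.09 on the log2 scale, lower than in all but 7.58% of the genes tested. Camk1g varied most, with an SD of 0.21, and its highest library was 2.55 times its lowest. Camk2d and Pnck had within-group SDs of 0.10 and 0.13.

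Camk2d was lower in HT cortex than in WT cortex in each treatment arm (folds of 0.85 under vehicle, 0.89 under fluoxetine and 0.87 under lithium). Under fluoxetine it had 2534, 2915 and 3270 normalized counts (lowest, median, highest of 10) in HT mice, against 3019, 3300 and 3591 in WT mice (n = 10). The groups overlapped, with 6 of 10 HT mice below every WT mouse and all 10 below the WT median. The log2 difference, HT minus WT, was -0.17 (SE 0.05 from limma). Under lithium the 9 HT mice had 2343, 2670 and 2899, against 2808, 3005 and 3191 in the 8 WT mice. Here 7 of 9 HT mice lay below every WT mouse and all 9 below the WT median, with a difference of -0.20 (SE 0.05). The arms share no library with each other or with the vehicle arm, but the gene was chosen for being lower in HT with no arm named, so none of the 3 differences is a test.

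In the vehicle arm Camk2d had 2452, 2861 and 3254 in 16 HT mice, against 2938, 3298 and 3836 in 15 WT mice. All 16 HT mice were below the WT median and 13 were below every WT mouse, and the log2 difference was -0.24 (SE 0.04). Within set 2 the 6 HT mice (2596 to 2923) did not overlap the 5 WT mice, which had 2938, 3025, 3146, 3180 and 3253, as was so for 1.47% of all genes, and the difference was -0.16 (SE 0.06). Among the males of set 3 the 2 HT mice had 2887 and 2850, against 3344 to 3657 in 5 WT mice, again without overlap (13.5% of all genes), and the difference was -0.29 (SE 0.08). With every library of set 3 left out it was -0.14.

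**Figure D2:**
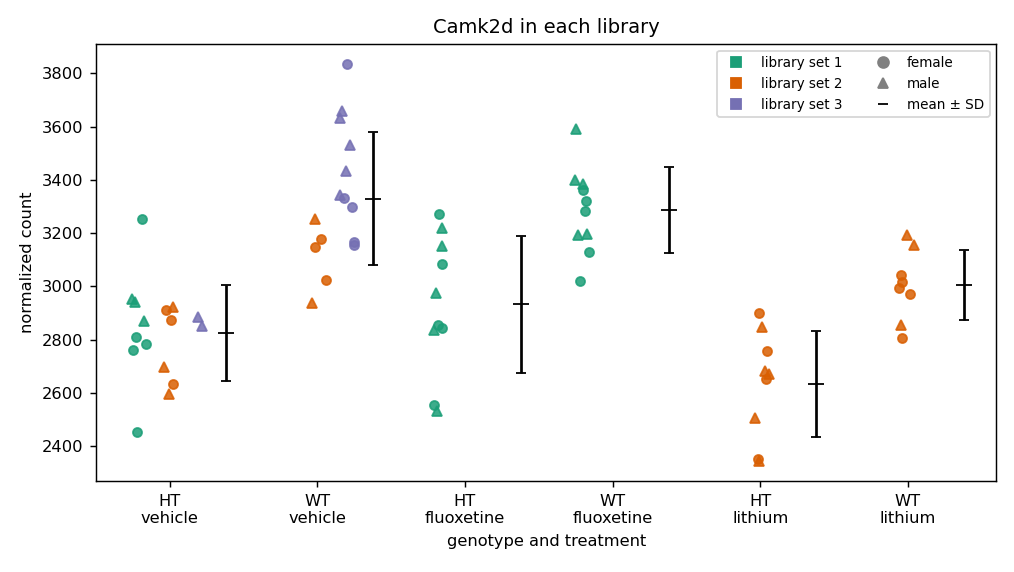
Camk2d normalized count in each library by genotype and treatment, HT left of WT in each arm, coloured by library set, circles female and triangles male, with the group mean ± SD in black. The medians were 2861, 2915 and 2670 in HT mice, against 3298, 3300 and 3005 in WT mice, under vehicle, fluoxetine and lithium.

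With each library left out in turn, the Camk2d difference lay between -0.19 and -0.14 under fluoxetine (20 libraries), between -0.22 and -0.17 under lithium (17) and between -0.25 and -0.22 under vehicle (31). Camk2d was no longer called by limma in 9 of the 20 omissions under fluoxetine, 2 of the 17 under lithium and 0 of the 31 under vehicle. Of the 66 marker genes, 0 were called between genotypes under fluoxetine by limma (11 at an unadjusted p under 0.05) or by edgeR, and 1 under lithium, the oligodendrocyte precursor gene Pdgfra (-0.27); in the fit by group and set 4 were called under fluoxetine and 2 under lithium, all lower in HT. The summed excitatory neuron markers (8 of 8 genes in the table) ran 50607, 70339 and 77352 in HT fluoxetine mice, against 52447, 67015 and 77832 in WT fluoxetine mice. They ran 66079, 73302 and 78693 in HT lithium mice, against 67626, 75774 and 80773 in WT lithium mice, and overlapped in both arms. The part of cell composition in the Camk2d difference was not tested.

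Of the 9 members 1, Camk2d, had a limma adjusted p (Benjamini-Hochberg over all 17922 genes) under the threshold of 0.05 in each arm. Beside it stood 1.98% of all genes under fluoxetine, 2.51% under lithium and 15.0% under vehicle. Within set 2 of the vehicle arm 0 of the 9 members were called, beside 0.536% of all genes. Nothing is read from these counts because Camk2d was chosen for this difference. Camk2a had a log2 difference of -0.05 (95% interval -0.21 to 0.12) under fluoxetine and -0.03 (-0.22 to 0.15) under lithium. Camk2b stood at 0.01 (-0.07 to 0.09) and -0.03 (-0.12 to 0.05). Camk2g, the gamma subunit that carries calmodulin to the nucleus in neurons, stood at 0.10 (-0.00 to 0.21) under fluoxetine, where 5 of 10 HT mice lay above every WT mouse, and at -0.01 (-0.13 to 0.11) under lithium. The intervals of Camk2a and Camk2b under both drugs span values of either sign, so a small change in either direction was not detectable here.

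**Figure D3:**
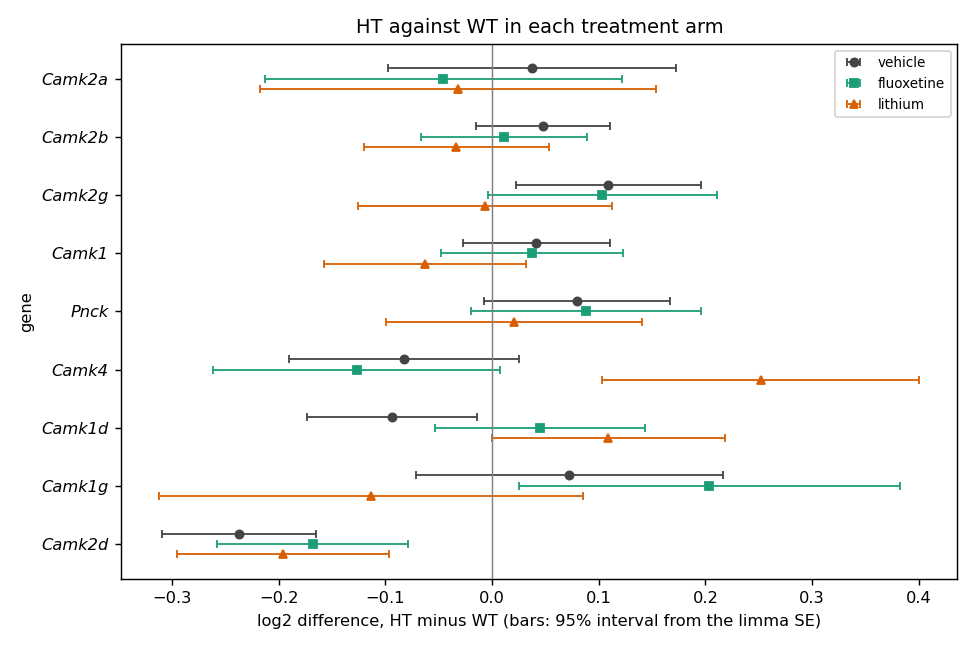
Log2 difference, HT minus WT, of each of the 9 genes under vehicle, fluoxetine and lithium, with 95% intervals from the limma SE. Camk2d lies between -0.24 and -0.17 in the 3 arms, and Camk4 lies at -0.08 under vehicle, -0.13 under fluoxetine and 0.25 under lithium.

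Among the cascade kinases, Camk4 read 1440, 1726 and 2053 in the 9 HT lithium mice, against 1103, 1517 and 1779 in the 8 WT lithium mice. The groups overlapped, with 3 HT mice above every WT mouse and 8 of 9 above the WT median. The log2 difference was 0.25 (95% interval 0.10 to 0.40). Under fluoxetine Camk4 had 1350, 1618 and 1877 in HT mice, against 1513, 1745 and 2000 in WT mice, with a difference of -0.13 (-0.26 to 0.01). Camk1g, a membrane-anchored gamma form of CaMKI, had 915, 1159 and 1538 in HT mice on fluoxetine, against 738, 991 and 1300 in WT mice, a difference of 0.20 (0.02 to 0.38) that was 0.42 in females and -0.01 in males, a gap between the sexes that was not tested. Camk1d, the delta form of CaMKI, had differences of 0.04 (SE 0.05) under fluoxetine and 0.11 (SE 0.06) under lithium. Those of Camk1 were 0.04 and -0.06, and those of Pnck 0.09 and 0.02. The median log2 difference of the 9 members was 0.04 under fluoxetine and -0.03 under lithium, beside -0.00 and 0.00 over all genes tested.

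Of 36 other genes of the calcium/calmodulin pathway, Calm2, a calmodulin gene, was the 1 called between genotypes under fluoxetine, beside 1.98% of all genes. It had 42996, 49694 and 52969 in HT mice, against 36431, 44715 and 47436 in WT mice, a log2 difference of 0.19 (SE 0.05, limma adjusted p = 0.044, and 0.032 in the fit by group and set). Under lithium 0 of the 36 were called by limma or by edgeR and 2 had an unadjusted p under 0.05 by limma, and the smallest adjusted p belonged to Grin2b, the NMDA receptor subunit that binds CaMKII (0.25, SE 0.08, adjusted p = 0.09). Under vehicle 3 were higher and 4 lower, 19.4% of the 36 beside 15.0% of all genes. Ppp3ca, the calcineurin catalytic subunit (-0.20, limma adjusted p = 0.0064), and Mef2c, a transcription factor of the pathway (-0.17, adjusted p = 0.02), were lower in HT. Camkv, a kinase-like protein without known activity (0.17, limma adjusted p = 0.016), and Hdac5, a class II histone deacetylase (0.12, adjusted p = 0.029), were higher. In the limma fit within set 2 of the vehicle arm, 0 of the 36 were called and 0 had an unadjusted p under 0.05. The median of the 36 was -0.04 under vehicle, -0.00 under fluoxetine and 0.01 under lithium.

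Pnck was lower under lithium in both genotypes, and more so within set 2, which holds all lithium libraries. In HT mice of set 2 it had 1295, 1441 and 1562 in 9 lithium libraries, against 1704, 1822 and 1957 in 6 vehicle libraries. The groups did not overlap, as was so for 0.424% of all genes, and the log2 difference was -0.33 (SE 0.05). In WT mice of set 2 it had 1311, 1388 and 1692 in 8 lithium libraries, against 1617, 1641, 1662, 1727 and 1810 in 5 vehicle libraries. Of the 8, 7 lay below every vehicle library, the exception being male 2 (1692), and the difference was -0.26 (SE 0.06). Against all vehicle libraries it was -0.20 (SE 0.05) in HT and -0.14 (SE 0.06) in WT. Vehicle libraries of the other sets were themselves lower for Pnck, by -0.14 (SE 0.05) in HT (set 1 minus set 2) and by -0.16 (SE 0.05) in WT (set 3 minus set 2). These contrasts chose the gene, so they carry no test here.

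**Figure D4:**
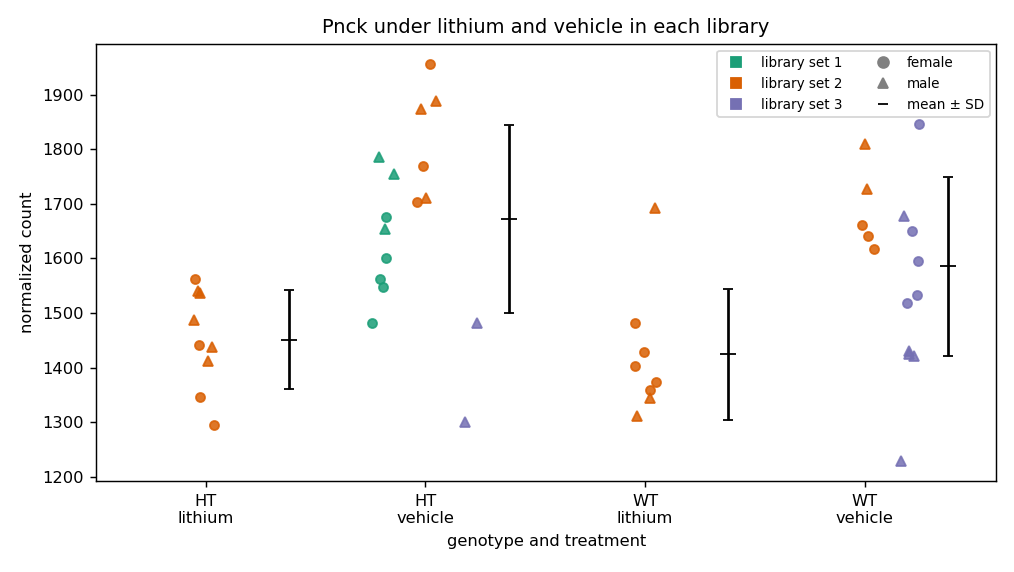
Pnck normalized count in each library under lithium and vehicle, HT mice left and WT mice right, lithium left of vehicle in each genotype, coloured by library set with the group mean ± SD in black. Within set 2 the HT lithium libraries (1295 to 1562) lie below all HT vehicle libraries (1704 to 1957).

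The change of Pnck under lithium differed between genotypes by -0.06 (HT minus WT, 95% interval -0.21 to 0.09), an interval that spans values of either sign. This too is a description, from the libraries that chose the gene. Within set 2, 0 of 66 marker genes were called by limma in either genotype, with 3 in HT and 5 in WT at an unadjusted p under 0.05. Against all vehicle libraries 1 of 66 was called in HT (Slc1a2 of astrocytes, 0.27) and 16 in WT, 10 higher and 6 lower. Pnck did not pass under fluoxetine, at 0.07 (SE 0.05, limma adjusted p = 0.59) in HT, where it stood at 0.08 against the vehicle libraries of set 1 (adjusted p = 0.52), and 0.06 (SE 0.05, adjusted p = 0.49) in WT.

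The members past the limma threshold under lithium are counted here as a description, since Pnck was chosen for this contrast, and nothing is read from the counts. In HT there was 1 of 9 (Pnck), beside 1.52% of all genes, and within set 2 again 1 (Pnck), beside 0.162%. In WT there were 6 of 9 against all vehicle libraries, beside 36.1% of all genes (18.6% higher and 17.5% lower): Camk2b, Camk2g and Camk1g higher and Camk2d, Camk4 and Pnck lower. Within set 2 the count was 1 (Pnck), beside 0.664%. Against all vehicle libraries, leaving out 1 library ended the Pnck call in 8 of 25 cases in HT and in 8 of 23 in WT. The log2 differences of Camk2b, Camk2g and Camk2d were 0.12, 0.20 and -0.14 with all WT vehicle libraries and 0.01, 0.03 and -0.04 within set 2. The HT and WT comparisons use different libraries on both sides, but each shares its vehicle libraries with the fluoxetine comparison of its genotype.

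Apart from Pnck, the members with the largest log2 differences between lithium and vehicle in WT mice of set 2 were Camk4, Camk1g and Camk1d, none of them past the limma threshold there. Camk1g had 1315, 1487 and 1834 in 8 WT lithium mice, against 1251, 1255, 1267, 1304 and 1313 in 5 vehicle mice. The groups did not overlap, as was so for 0.993% of all genes, although the nearest libraries differed by only 2 counts, and the log2 difference was 0.25 (SE 0.11) against 0.45 with all vehicle libraries. In HT mice of set 2 it was 0.11 (SE 0.10), with 1185, 1439 and 1723 under lithium, against 1111, 1332 and 1504 under vehicle. Camk4 had 1103, 1517 and 1779 in WT lithium mice, against 1668, 1781, 1827, 1854 and 1953 in the 5 vehicle mice of set 2, a difference of -0.31 (SE 0.09), with 5 of 8 below every vehicle library. In HT mice of set 2 it was 0.10 (SE 0.08). Camk1d stood at -0.17 (SE 0.06) in WT and 0.09 (SE 0.06) in HT within set 2.

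**Figure D5:**
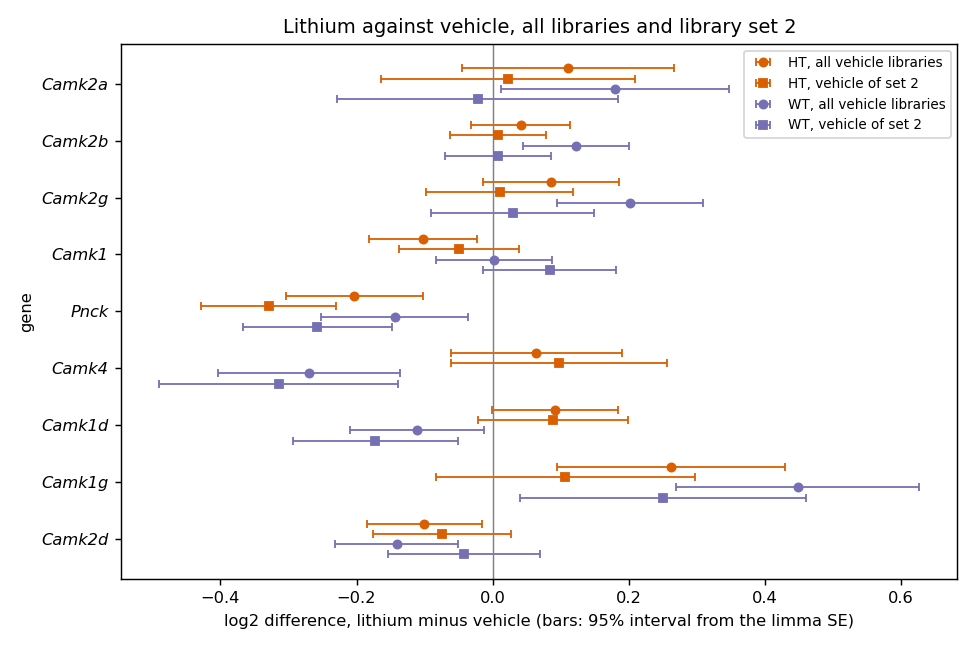
Log2 difference, lithium minus vehicle, of each of the 9 genes in HT and WT mice, with all vehicle libraries (circles) and with those of set 2 alone (squares), and 95% intervals from the limma SE. Pnck lies below 0 in all 4 cases, and Camk2b, Camk2g and Camk2d in WT lie nearer 0 within set 2.

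The effect of lithium on Camk4 differed between genotypes by 0.33 on the log2 scale (HT minus WT, SE 0.09, limma adjusted p = 0.041), the 1 member called in that contrast, beside 2.80% of all genes. That contrast draws on the libraries whose lithium to vehicle difference chose the family, so the members' p-values in it are a description. The Camk4 difference was 0.41 (SE 0.12) within set 2, where the adjusted p was 0.37, and 0.40 with the set 3 libraries left out (adjusted p = 0.12). Leaving out single libraries ended the call in 19 of 48 cases. These were 2 HT lithium females, 2 HT lithium males, 3 HT vehicle females, 3 HT vehicle males, 2 WT lithium females, 1 WT lithium male, 2 WT vehicle females and 4 WT vehicle males. The lowest value came without WT lithium male 2 (0.25, limma adjusted p = 0.2), the library with the lowest Camk4 count of its arm. In the other cases that ended the call the values lay between 0.29 and 0.34. Over all 48 omissions they ran from 0.25 to 0.41. Camk1d, whose libraries followed Camk4 within groups (Pearson r = 0.79 over 68 libraries, a description), had a difference of 0.20 (SE 0.07, limma adjusted p = 0.081).

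Among the 36 pathway genes, Hdac4, a histone deacetylase that CaM kinases send out of the nucleus, was the 1 called by limma under lithium in HT, beside 1.52% of all genes (0.16, SE 0.04, limma adjusted p = 0.05 after rounding). By edgeR 0 of the 36 were called there. In WT 7 were higher and 7 lower with all vehicle libraries, 38.9% of the 36 beside 36.1% of all genes, led by Camkk1, the upstream kinase of CaMKI and CaMKIV (0.48, SE 0.09, limma adjusted p = 7e-05). Camkk1 was also lower in WT vehicle mice of set 3 than of set 2 (-0.58), and within set 2 limma called 0 of the 36 under lithium in either genotype, with 3 in HT and 2 in WT at an unadjusted p under 0.05.

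Under fluoxetine, Camk1, a cytosolic kinase of the cascade, was the single member called, in WT mice, beside 5.43% of all genes. It had 2427, 2731 and 2973 in 10 WT fluoxetine mice, against 2214, 2512 and 2822 in 15 WT vehicle mice. The groups overlapped, 4 of 10 fluoxetine mice lay above every vehicle mouse, and the log2 difference was 0.13 (SE 0.04, limma adjusted p = 0.046). All WT fluoxetine libraries were in set 1 and no WT vehicle library was, so drug and set cannot be told apart, and with set as a covariate the difference was -0.0005. Leaving out 1 of 16 of the 25 libraries ended the call: 3 WT fluoxetine females, 4 WT fluoxetine males, 5 WT vehicle females and 4 WT vehicle males, with values of 0.11 to 0.13. In HT mice Camk1 had 2511, 2852 and 3134 under fluoxetine, against 2293, 2549 and 2914 under vehicle, a difference of 0.12 (SE 0.04, adjusted p = 0.11) that was 0.04 (SE 0.04) against the vehicle libraries of set 1. In HT, 0 of 9 members were called by limma, beside 1.22% of all genes, and 1 of the 9 had an unadjusted p under 0.05, while edgeR also called 0.

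Camk2b missed the threshold in WT mice on fluoxetine (0.11, SE 0.04, limma adjusted p = 0.07), and Camk2d did not differ detectably with the drug in HT (0.05, 95% interval -0.03 to 0.13, and 0.03, -0.06 to 0.12, against the vehicle libraries of set 1) or WT (-0.02, -0.10 to 0.06). For no member was the difference of the fluoxetine effects between genotypes called, in a contrast with 0 genes called by limma (0.00%) and 1, not a member, by edgeR. The largest among the members was that of Camk1d (0.14, SE 0.06, adjusted p = 0.38), the 1 member with an unadjusted p under 0.05. Of the 36 pathway genes, limma called 1 higher in HT mice (beside 1.22% of all genes called) and 1 lower in WT mice on fluoxetine (beside 5.43%). Calm2 was higher in HT mice on fluoxetine than on vehicle (0.19, SE 0.05, limma adjusted p = 0.033), with 42996, 49694 and 52969 against 38330, 42709 and 52493 under vehicle. Ppp3ca was lower in WT mice on fluoxetine (-0.26, SE 0.06, limma adjusted p = 0.0089), with 18984, 22225 and 25556, against 20927, 27434 and 30635 under vehicle. Against the HT vehicle libraries of set 1, limma called 0 of the 36 (5 at an unadjusted p under 0.05), and Ppp3ca was higher by 0.22 in WT vehicle mice of set 3 than of set 2.

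Of the members, 0 were called between the sexes by limma or edgeR, and 0 had an unadjusted p under 0.05 by limma, beside 0.100% of all genes called. The largest female minus male log2 difference was that of Camk1g, -0.10 (SE 0.05, limma adjusted p = 0.82). Camk2d had 2353, 3017 and 3836 in 35 females, against 2343, 2954 and 3657 in 33 males. The difference of its genotype effect between the sexes under vehicle was 0.04 (95% interval -0.11 to 0.18, limma adjusted p = 0.97), in a contrast with 0 genes called by limma (0.00%) or edgeR and 0 members at an unadjusted p under 0.05.

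After group means were removed, the annotated protein-coding genes most like Camk2d over the 68 libraries were Clmp (Pearson r = 0.73), Epha5 (0.71) and Scn3a (0.69). Those most like Pnck were Erp29 (0.78), Fbxl6 (0.77) and Tor2a (0.76). Between members the highest values were those of Camk4 with Camk1d (0.79), Camk2g with Camk1g (0.71) and Camk2a with Camk2g (0.66), and the lowest was that of Camk2d with Camk2g (-0.59). These are descriptions over libraries that share the 3 sets and their depth. Between genotypes Clmp stood at -0.09 under fluoxetine and -0.06 under lithium, Epha5 at -0.06 and 0.06, and Scn3a at -0.08 and 0.17, none of them past the limma threshold. Under vehicle Clmp stood at -0.16 and was called (limma adjusted p = 0.035, beside 15.0% of all genes). Epha5 and Scn3a stood at -0.14 each there and were not called. In the vehicle comparison within set 2 the values were -0.10, -0.02 and 0.02, with no call. Under lithium against all vehicle libraries, Erp29, Fbxl6 and Tor2a stood at 0.02, 0.02 and 0.07 in HT and at 0.21, 0.05 and 0.21 in WT, where Erp29 (limma adjusted p = 0.00037) and Tor2a (adjusted p = 0.0016) were called higher. Within set 2 the 3 genes stood at -0.06, -0.09 and -0.03 in HT and at 0.12, -0.05 and 0.04 in WT, with limma adjusted p of 0.31 or more.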

How the data were processed

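RNA-seq libraries were made with a stranded kit for polyadenylated RNA, per the labels' protocols. The authors deposited 1 table of normalized signal values, which are gene read counts divided by 1 size factor per library, as whole multiples of a constant step in the low values show: at a tolerance of 0.01, 100% of values came out as whole reads. Salmon 0.11.2, R 3.6.0, DESeq2 1.19.11 and GRCm38 are named in the submitters' processing notes, without roles; the sources used here state no annotation, filter or strand setting. Of 18088 genes, 18077 matched GENCODE annotation of GRCm38, from which exon lengths and sequences were read.

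Genes with a mean of at least 5 (17922, with 166 left out) were tested on log2(value + 1) with limma 3.58.1 (trend and robust shrinkage, R 4.3.3) in 1 fit of 12 groups over 68 libraries, sexes weighted equally, with Benjamini-Hochberg adjustment over all genes and a threshold of 0.05. Because the values were normalized, limma took the place of edgeR; edgeR 4.0.16 on those reads was an alternative. Fold changes are on the log2(value + 1) scale. Alternatives were other pseudocounts (0.5 and 5), no filter, TMM and upper-quartile scaling, fits of the compared groups alone, library set as a covariate or within 1 set, a replicate block, no robust shrinkage, and leaving out each library. Library sets came from average-linkage clustering of 361 pseudogenes, with the tree cut at 3 clusters, a number that was set and not estimated. Depth was 22.4 to 37.5 M reads, so the spread between mice rather than counting limits the members. Labels give no litters, so pups of a treated mother may be counted as separate animals, and p-values then measure the spread between libraries. The scripts were tested on simulated data.

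Members and gene lists were chosen with earlier results of these data known. That choice named HT and lithium with no arm, so the members' HT to WT and lithium to vehicle contrasts carry no p-value. Differences of drug effects between genotypes, or of genotype effects between sexes, draw on the same libraries. The members' p-values in them are a description. Named genes were all members, up to 4 pathway genes per contrast by smallest p, and the 3 genes most correlated with Camk2d and with Pnck; Slc17a7, Ttr, Tbx21, Pdgfra, Slc1a2 and Adnp were named outside that rule, after their values were seen. Under vehicle 7 of 15 same-numbered HT and WT pairs correlated above 0.1 (r from -0.12 to 0.44), and in lithium to vehicle pairs of HT 1 of 9 did. Replicate numbers also follow the library sets under vehicle, where replicates from 6 upward all lie in set 2. The group means removed before correlating span sets, and the part of set in these values was not tested. Whether the numbers mark pairs is thus not settled. As the labels give no litters, the numbers were not used as pairs.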

Additional observations from a re-analysis of the deposited data

Results flagged for a closer look

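Among 99 combinations of a group of 4 to 10 libraries and a member, 7 had a library far from the others of its group by Dixon's criterion, where chance gives about 1 in 20. Camk2a was low in HT vehicle male 5 (71860 normalized counts, the nearest other at 92660) and in WT vehicle female 1 (63762, nearest 89660). Camk2b was low in HT lithium male 1 (24571, nearest 25446) and Camk2g in HT lithium male 3 (6928, nearest 7360). Camk1g was low in HT fluoxetine male 3 (915, nearest 1122). Pnck was high in WT vehicle female 3 (1847, nearest 1662). Camk2d was high in WT vehicle female 1 (3836, nearest 3332), the same library that was low for Camk2a. The effect of lithium on Camk4 differed between genotypes by 0.33 on the log2 scale (limma adjusted p = 0.041), and by 0.41 (SE 0.12) within library set 2, where the adjusted p was 0.37. Both p-values are a description, since the contrast draws on the libraries that chose the family.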

How the results depend on the processing

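Of the member values recomputed under settings other than leaving out a library, 1119 of 1161 kept their side of the threshold. These had no change of sign in a called value. In 60 of these the sign changed between values past the threshold in neither fit. The counts of members called are given apart, below. Both pseudocounts, no filter, edgeR on recovered reads, TMM scaling and no robust shrinkage changed no call. Members called went, for genotype under vehicle, from 1 to 2 with upper-quartile scaling and 0 within 1 set or without set 3; for genotype under lithium, from 1 to 2 with upper-quartile scaling, set as covariate, within 1 set and without set 3 (Camk4 added); for genotype under fluoxetine, from 1 to 0 with only the groups compared. For fluoxetine in WT the count of 1 became 0 with upper-quartile scaling, only the groups compared or set as covariate, and 2 without set 3; for the difference of lithium effects 1 became 0 with only the groups compared, set as covariate, within 1 set and without set 3; for lithium in WT 6 became 1 with set as covariate, within 1 set and without set 3. With set as covariate Camk1 under fluoxetine in WT turned to -0.0005 and Camk2b under lithium in WT to -0.011. Leaving out 1 library moved the counts between 1 and 2 (genotype under vehicle and under lithium), 0 and 1 (genotype under fluoxetine, fluoxetine in HT, lithium in HT), 0 and 2 (fluoxetine in WT, difference of lithium effects) and 5 and 6 (lithium in WT), and left the other 3 at 0. In the genotype comparison under lithium, Camk2d lost its call without HT lithium female 4 and without WT lithium male 1. Camk4 gained a call in both of these omissions, so the count did not fall. The causes were not tested.

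The labels do not tie replicate numbers to litters, so the replicate block was an alternative only. With it the members called for lithium in HT went from 1 to 5, while no other count of members moved by more than 1.5 times. Replicate numbers go with the library sets, however. The HT lithium libraries were replicates 1 to 5, all in set 2, while the HT vehicle libraries of set 2 were replicates 6 to 8. The block thus sets HT lithium libraries beside vehicle libraries of sets 1 and 3, so drug and set cannot be told apart in it. Within set 2, 1 member (Pnck) was called.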
